A study of Mesocricetus auratus with 8 samples.

Results

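Respiratory complexes II and V were examined in the hearts of 8 female golden hamsters (Mesocricetus auratus) through the 21 genes of the deposited count table that carry their names, of 20360 in the table. Members were taken by name alone: Sdha, Sdhb, Sdhc and Sdhd for complex II, and the 17 genes that begin with Atp5 for complex V, the ATP synthase. Complexes III and IV, cytochrome c and the heart and ubiquitous isoforms of cytochrome c oxidase were not analysed here. By the design text, some animals had loss of heterozygosity at Myh6, which encodes the heart's alpha myosin heavy chain, and the rest were wild type, all taken at 25 weeks, ahead of dilated cardiomyopathy. Each label gives a code for the animal, from M5F5 to M5F56, and no genotype, so genotypes were not compared, no library was taken as a replicate of another, and levels are listed library by library or as the lowest, the median and the highest.

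Complex II, succinate dehydrogenase, oxidises succinate in the citric acid cycle and passes the electrons to ubiquinone; it pumps no protons. Complex V lets protons flow back through a ring of c subunits in the inner mitochondrial membrane, and the turning of that ring drives ATP formation in the catalytic head. A working heart makes most of its ATP this way, and its muscle cells are packed with mitochondria.

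Library totals ran from 13608500 to 15255764 counts. Of each library's counts, the 21 members took 2.02 to 2.32%, with 0.610 to 0.706% in complex II and 1.38 to 1.71% in complex V. All 21 had a mean count of at least 50 and were among the 10909 genes tested for spread. Levels below are CPM, counts scaled to the library total, which was adjusted by the trimmed mean of M-values (TMM). No transcript lengths were used, so levels are compared between libraries and not between genes. Ranking by median CPM served only to choose which genes are given in full. Ratios and shares of the counts of several genes are likewise compared between libraries. In whole-heart RNA, fewer cells of a type and less RNA per cell cannot be told apart.

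In 4 libraries, the 15 structural subunits of the ATP synthase all lay on the same side of their own medians. Each was below its own median in M5F12 and M5F16 and above it in M5F5 and M5F7, 15 of 15 in all 4 libraries, apart from 14 in M5F5 when plain total counts replaced TMM. Over all genes tested, the shares were 52.8% below in M5F12, 48.7% below in M5F16, 51.9% above in M5F5 and 50.5% above in M5F7. In the other libraries the 15 were split. In M5F19 12 were below and in M5F22 12 above (49.9% and 53.1% of all genes tested). In M5F55 11 were above and in M5F56 11 below (47.4% and 51.4% of all genes tested). In M5F12, M5F16, M5F5 and M5F7, the 4 genes of complex II did not all lie on the same side. Below their median were 3 in M5F12 and 2 in M5F16, and above it 1 in M5F5 and 2 in M5F7. Sdhb alone of them followed the ATP synthase in each of these libraries, and Sdha went the other way in each. All 4 genes of complex II were above their median in M5F22 (53.1% of all genes tested), but 2 with plain total counts.

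**Figure D1:**
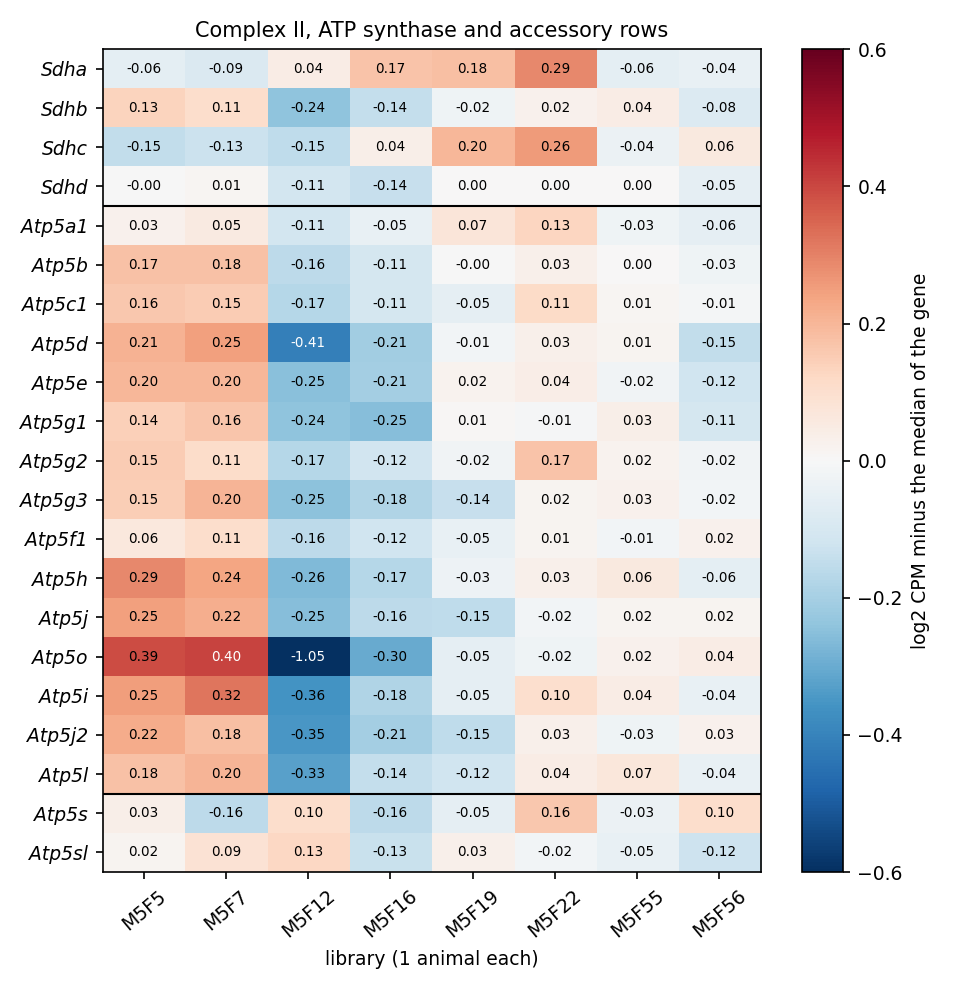
Rows are the 21 members and columns the 8 libraries. Colour and number give log2 CPM minus the median of that gene over the libraries, with the colour capped at 0.6 in both directions; lines separate complex II, the structural subunits of the ATP synthase and 2 accessory genes. M5F12 and M5F16 are blue and M5F5 and M5F7 red throughout the ATP synthase block, while Sdha and Sdhc are reddest in M5F22.

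Differences between animals were small for most members. All 21 differed between libraries by more than counting error allows (adjusted p under 0.05 in a chi-square test over all genes), as did 86.4% of all genes tested. From the lowest to the highest library, 1 of the 21, Atp5o, spanned at least 2-fold (13.9% of all genes tested), and 3 spanned at least 1.5-fold, Atp5o, Atp5i and Atp5d (42.2% of all genes tested). The median member spanned 1.33-fold, against 1.45-fold for the median of all genes tested. Among the 4683 genes averaging 500 or more counts, a level that all 21 members reached, the median span was also 1.33-fold. With both extreme libraries of a gene dropped, the trimmed span of the median member was 1.25-fold, also 1.25-fold for all genes tested, and Atp5o alone passed 1.5-fold (16.3% of all genes tested). Without M5F12, Atp5o spanned 1.63-fold, no member passed 2-fold and 1 passed 1.5-fold.

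**Figure D2:**
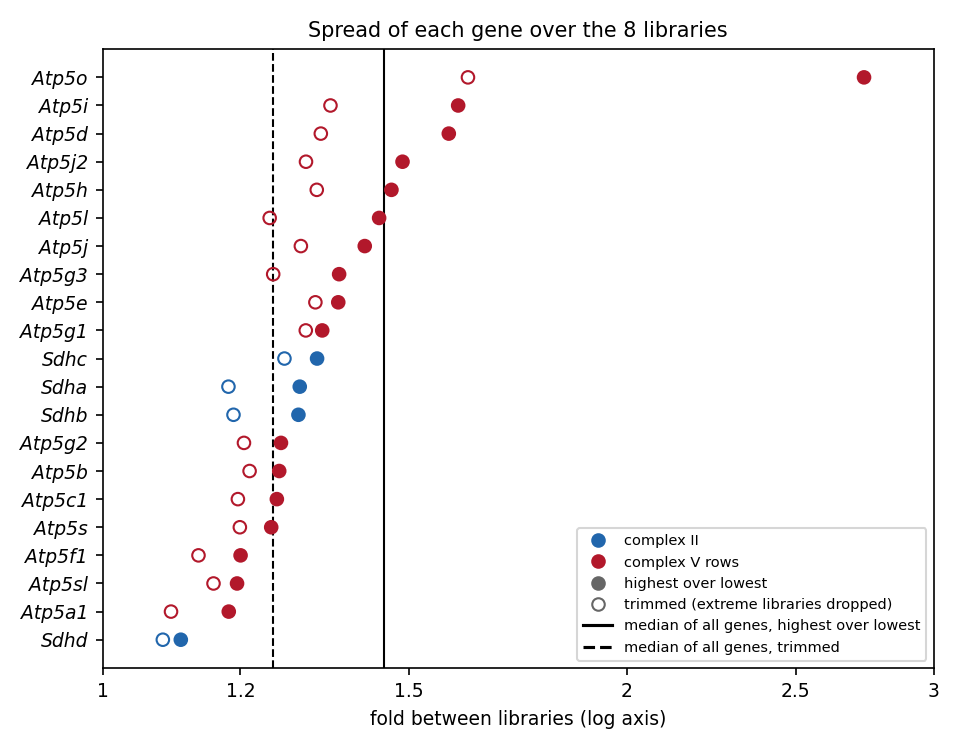
For each member, the filled point is the fold between the highest and the lowest library and the open point the trimmed fold, with both extreme libraries dropped, on a log axis, with complex II in blue and complex V rows in red. The solid and the dashed line mark the medians of these folds over all genes tested, 1.45 and 1.25; Atp5o, at 2.74-fold, lies apart from the other 20, which span 1.11-fold to 1.60-fold.

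Within complex II, Sdha, the flavoprotein that binds succinate, was at 4637 CPM in M5F22, 4299 in M5F19, 4266 in M5F16, 3914 in M5F12, 3677 in M5F56, 3646 in M5F55, 3640 in M5F5 and 3573 in M5F7. M5F22 stood highest, and the 4 lowest libraries lay close together. Sdhb, the iron-sulphur protein that takes electrons from Sdha, was at 1089 CPM in M5F5, 1070 in M5F7, 1025 in M5F55, 1010 in M5F22, 977 in M5F19, 938 in M5F56, 900 in M5F16 and 841 in M5F12. M5F5 and M5F7, the libraries with the most Sdhb, were thus those with the least Sdha.

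Sdhc and Sdhd together anchor the complex in the membrane and hold its heme. Sdhc was at 696 CPM in M5F22, 669 in M5F19, 606 in M5F56, 597 in M5F16, 568 in M5F55, 533 in M5F7, 526 in M5F5 and 524 in M5F12. Like Sdha, it was highest in M5F22 and M5F19, and the ratio of Sdha to Sdhc counts varied 1.23-fold, less than the 1.42-fold of Sdha to Sdhb. Sdhd had a median of 942 CPM (855 to 948) and spanned 1.11-fold, the narrowest of the 21 members, with 0.853% of all genes tested narrower still.

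In the catalytic head of the ATP synthase, Atp5a1 encodes the alpha subunit and Atp5b the beta subunit, which carries the catalytic sites. Atp5b was at 1579 CPM in M5F7, 1575 in M5F5, 1425 in M5F22, 1400 in M5F55, 1392 in M5F19, 1371 in M5F56, 1297 in M5F16 and 1250 in M5F12. M5F7 and M5F5 stood above the other 6 libraries. Atp5a1 was at 4068 CPM in M5F22, 3912 in M5F19, 3859 in M5F7 and 3785 in M5F5. Lower still were M5F55 at 3646, M5F16 at 3597, M5F56 at 3574 and M5F12 at 3443. Atp5a1 varied less than Atp5b, 1.18-fold, with its highest value in M5F22 in place of M5F7.

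The central stalk, the rotor that couples the membrane ring to the head, is encoded by Atp5c1 (gamma), Atp5d (delta) and Atp5e (epsilon). Atp5c1 was at 1777 CPM in M5F5, 1768 in M5F7, 1723 in M5F22, 1606 in M5F55, 1577 in M5F56, 1533 in M5F19, 1479 in M5F16 and 1412 in M5F12. Atp5d had a median of 413 CPM (310 in M5F12 to 490 in M5F7), a 1.58-fold span, and Atp5e a median of 382 CPM (321 to 439). All 3 were lowest in M5F12 and next lowest in M5F16.

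The c subunit of the ring is encoded by Atp5g1, Atp5g2 and Atp5g3, whose products differ in the targeting sequence that is cut off on import and yield the same mature protein, as known in mouse and human. Their shares of the counts of the 3 genes differed by a few percentage points between animals. Atp5g1 had 42.0 to 45.5% and Atp5g3 38.9 to 42.4%, and M5F19 held the highest share of Atp5g1 (95% exact binomial interval 45.0 to 46.0%) and the lowest of Atp5g3 (38.4 to 39.5%). Atp5g2 had 14.5% in M5F7 (14.2 to 14.9%) and 16.7% in M5F22 (16.4 to 17.1%). Intervals cover counting error only, and reads that these related transcripts share may have been split between them.

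The peripheral stalk, which holds the head still against the turning rotor, held the member with the widest spread. Atp5o, the subunit that confers sensitivity to oligomycin and sits on top of the head, was at 78.4 CPM in M5F7, 77.8 in M5F5, 61.1 in M5F56, 60.2 in M5F55, 58.3 in M5F22, 57.1 in M5F19, 48.0 in M5F16 and 28.6 in M5F12. M5F12 (95% Poisson interval 25.9 to 31.5 CPM) lay far below the next library, and M5F7 and M5F5 stood above the rest. Atp5f1 (subunit b) varied least of the 4 stalk genes, Atp5j (coupling factor 6) spanned 1.41-fold and Atp5h (subunit d) 1.47-fold, with the lowest value of all 3 in M5F12.

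Of the small membrane subunits that hold ATP synthase dimers or the base of the stalk, Atp5i (subunit e) was at 568 CPM in M5F7, 542 in M5F5, 488 in M5F22, 469 in M5F55, 442 in M5F56, 438 in M5F19, 401 in M5F16 and 355 in M5F12. Atp5j2 (subunit f) had a median of 976 CPM (765 to 1137) and Atp5l (subunit g) 827 CPM (660 to 951). These 3 had a median span of 1.49-fold, against 1.22-fold for Atp5a1 and Atp5b.

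Atp5s and Atp5sl share the name of the ATP synthase but are not among its structural subunits. Atp5s encodes coupling factor B, and the human counterpart of Atp5sl acts in the assembly of complex I. Like the other 15, both were below their own median in M5F16 and above it in M5F5. Unlike those 15, both were above it in M5F12, and Atp5s was below it in M5F7. Atp5s had a median of 63.5 CPM (56.9 in M5F16 to 71.1 in M5F22), and Atp5sl was highest, not lowest, in M5F12 (79.7 CPM, median 73.0).

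M5F12 held the lowest value of 16 of the 21 members, 14 of them structural subunits of the ATP synthase and the other 2 Sdhb and Sdhc (13.9% of all genes tested were lowest there). The lowest value of 4 members lay in M5F16 (12% of all genes tested), Atp5g1, Atp5s, Atp5sl and Sdhd, and that of Sdha in M5F7. The highest value lay in M5F7 for 9 members (17.7% of all genes tested), in M5F5 for 6 (16.5%), in M5F22 for 5 (11.6%) and in M5F12 for Atp5sl (9.26%). Leaving out M5F5 left 15 members highest in M5F7 (24.4% of all genes then tested). Leaving out M5F7 left 14 highest in M5F5, for which the share over all genes was not computed.

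Set against complex I, the entry point for electrons from NADH, the ATP synthase had medians close to those of complex I in every library, and those of complex II lay elsewhere in most. The median deviation of the 15 structural subunits from their own medians was 0.20 on the log2 scale in M5F7, 0.18 in M5F5, -0.17 in M5F16 and -0.25 in M5F12. For 36 complex I genes it was 0.21, 0.21, -0.18 and -0.25 in the same libraries, and for all genes tested it lay between -0.0071 and 0.0069 in every library. Complex II had -0.038 in M5F7, -0.031 in M5F5, -0.052 in M5F16 and -0.13 in M5F12, with its highest value, 0.14, in M5F22. The difference between the complexes was not tested, since the labels define no groups and the genes of a complex are not replicates.

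**Figure D3:**
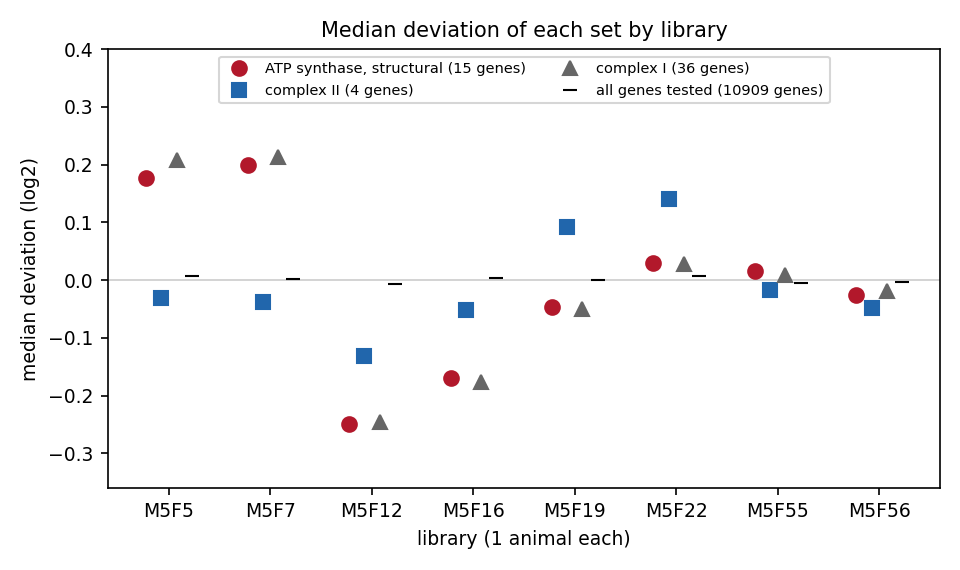
For each library, points give the median over the genes of a set of log2 CPM minus the median of that gene over the 8 libraries: 15 structural ATP synthase genes (red circles), 4 complex II genes (blue squares), 36 complex I genes (grey triangles) and all 10909 genes tested (black dashes). Red and grey lie together, from about -0.25 in M5F12 to about 0.20 in M5F7, and blue departs from them most in M5F5 and M5F7.

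Of the 36 complex I genes, 2 spanned 2-fold or more (13.9% of all genes tested), 10 spanned 1.5-fold or more (42.2% of all genes tested), and 27 were lowest in M5F12 (13.9% of all genes tested). The widest by the trimmed span were Ndufb10, at 611 CPM in M5F7 and 288 in M5F12 (median 485), and Ndufa2, at 183 CPM in M5F5 and 116 in M5F12 (median 148). Ndufa4, now counted as a subunit of complex IV, had a median of 1089 CPM (963 in M5F16 to 1326 in M5F5). Of the 36 assembly factors listed for the respiratory complexes, 13 had a row under the listed name, and all 13 were tested. None spanned 2-fold, 3 spanned 1.5-fold, and 5 were lowest in M5F12 and 5 in M5F7 (13.9% and 18.1% of all genes tested). Their median span was 1.33-fold. Pet100 and Sdhaf3, assembly factors of complexes IV and II, had the widest spans after the extremes were dropped, with medians of 20.0 CPM (15.7 to 25.3) and 13.0 CPM (9.76 to 15.2).

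Markers of the cell types in the tissue differed between the same libraries. The summed level of 12 cardiomyocyte markers was lowest in M5F12, 96819 CPM, and highest in M5F22, 115050 CPM. Of the 12, 7 were lowest in M5F12 (13.9% of all genes tested). Atp2a2 and Ryr2 went the other way, with Atp2a2 highest in M5F12 (15664 CPM) and Ryr2 above its own median there (1336 CPM). The 10 macrophage markers had their highest sum, 147 CPM, in M5F12 and their lowest, 73.8 CPM, in M5F5. Of the 7 that were tested, 5 were highest in M5F12 (9.26% of all genes tested). The 8 endothelial markers summed to 1917 CPM in M5F7, 1663 in M5F5 and 1142 to 1576 in the other 6 libraries, with 1208 in M5F12. Of these markers, 6 were highest in M5F7 (17.7% of all genes tested). Sums ran from 1220 to 1491 CPM for 8 fibroblast markers and from 1173 to 1661 CPM for 7 smooth muscle and pericyte markers. For 6 adipocyte markers they ran from 6.21 to 9.56 CPM and came almost wholly from Cidea. Adipoq, Lep and Ucp1 had no count in any library, and Plin1 and Cidec reached at most 0.139 and 0.347 CPM. The 5 skeletal muscle markers in the table summed to 5552 to 10233 CPM, from Acta1 and Ckm, which the heart also expresses, while Tnnt3, Tnni2 and Mylpf were at 0.428 CPM or below. The part of these differences in the results was not tested.

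Across the animals, 7 relations between partners were examined over 8 libraries, chosen after the values had been seen, with exact two-sided permutation p-values adjusted by Benjamini-Hochberg over the 7. For the central stalk partners Atp5c1 and Atp5d, Pearson's r was 0.93 (exact permutation p = 0.000843, adjusted 0.00573). Spearman's rho was 0.95 (exact permutation p = 0.00114, adjusted 0.00799). Leaving out M5F5 and M5F12, where Atp5c1 was farthest from its median, gave r = 0.86. Of the other genes tested, 0.853% had as high an r with Atp5c1. For Atp5f1 and Atp5h of the peripheral stalk, r was 0.91 (exact permutation p = 0.00352, adjusted 0.00729) and rho 0.81 (p = 0.0218, adjusted 0.0489). For Atp5g1 and Atp5g3 of the ring, r was 0.89 (exact permutation p = 0.00417, adjusted 0.00729) and rho 0.90 (p = 0.00456, adjusted 0.0160). Of the other genes tested, 1.64% had as high an r with Atp5f1 and 1.60% with Atp5g1. Both rested in part on M5F12 and M5F16, since without those libraries r was 0.77 and 0.76, with unadjusted exact permutation p of 0.0778 and 0.0722.

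No p under 0.05 was reached by either coefficient for 3 pairs of partners. Atp5a1 with Atp5b had r = 0.62 (exact permutation p = 0.101, adjusted p = 0.141) and rho = 0.71 (p = 0.0576, adjusted p = 0.0806), with r = 0.61 without M5F12 and M5F22, and 5.44% of the other genes had as high an r with Atp5a1. Sdha with Sdhb had r = -0.30 (exact permutation p = 0.460, adjusted p = 0.537) and rho = -0.57 (p = 0.151, adjusted p = 0.176), with r = -0.72 without M5F19 and M5F22. Its r was -0.70 when libraries were scaled by total counts (adjusted exact permutation p = 0.0826), and 65.5% of the other genes had as high an r with Sdha. For Sdhc with Sdhd r was 0.19 (exact permutation p = 0.644, the same after adjustment) and rho 0.12 (p = 0.793, likewise), and the sign of r depended on the scaling and on M5F19 and M5F22, without which it was -0.34. Of the other genes, 38.8% had as high an r with Sdhc.

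The ratio between catalytic partners, taken within a library and so free of any scaling between libraries, was parallel in the 2 complexes. Counts of Sdha over Sdhb were 4.74 in M5F16, 4.66 in M5F12, 4.59 in M5F22, 4.40 in M5F19, 3.92 in M5F56, 3.56 in M5F55, 3.34 in M5F5 and 3.34 in M5F7. Counts of Atp5a1 over Atp5b were 2.77, 2.75, 2.86, 2.81, 2.61, 2.60, 2.40 and 2.44 in the same order of libraries. The 4 libraries with the highest ratio were the same for both pairs, as were the 2 with the lowest. On the log2 scale, r was 0.94 (exact permutation p = 0.00164, adjusted p = 0.00573) and rho 0.79 (exact permutation p = 0.0279, adjusted p = 0.0489), and r was 0.86 without M5F5 and M5F7 (unadjusted exact permutation p = 0.0458). Sdhb and Atp5b were both highest in M5F5 and M5F7 and lowest in M5F12 and M5F16, and Sdha and Atp5a1 both highest in M5F22. The relation was chosen after these values had been seen. For ratios of other genes, no r was computed, so how common such a value is was not tested.

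**Figure D4:**
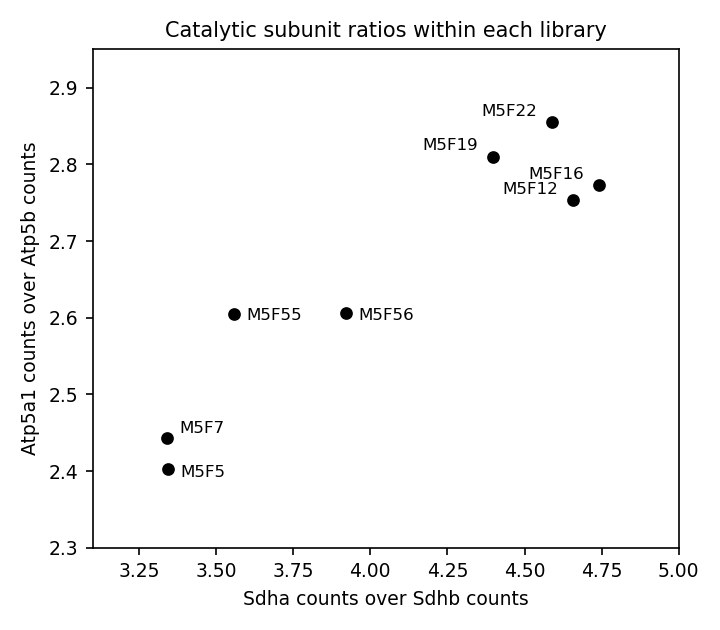
Each point is a library, with Sdha counts over Sdhb counts on the x axis and Atp5a1 counts over Atp5b counts on the y axis; neither axis starts at 0. M5F5 and M5F7 lie at the lower left, M5F55 and M5F56 between, and M5F12, M5F16, M5F19 and M5F22 at the upper right.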

How the data were processed

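PolyA RNA of 8 hearts was sequenced, 1 library per animal. The table deposited by the authors holds whole-number counts, one per gene in every library, and these were taken as not normalized. The submitters' processing notes name HISAT2 2.0.4, Bowtie2 2.2.5 and also RSEM. What each tool did, the genome build, the annotation and any rounding of estimates are not given in the sources. All 8 columns matched a library label.

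Counts were scaled with TMM (edgeR 4.0.16, R 4.3.3; factors 0.960 to 1.05), and log2 values used a prior count of 0.5. Spread was taken over 10909 genes whose counts averaged 50 or more, with a chi-square test against equal relative abundance (SciPy 1.17.1), adjusted by Benjamini-Hochberg over all of them at 0.05. That test and all intervals cover counting error only. Scripts were tested on simulated counts. Alternatives were DESeq2 1.42.0 size factors, total counts, upper-quartile factors, no count filter, a mean count of at least 500, a prior count of 5 and leaving out each library.

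Members and lists were chosen with earlier results of these data known. Genes given in full are, per complex, the 2 with the highest median CPM and the 2 widest by each range, plus catalytic subunits; other lists name their 2 widest. Genes of the Nduf prefix were counted as complex I apart from Ndufaf genes, Ndufa4 and Ndufa4l2. Planned ratios of cytochrome c oxidase isoforms and their relations were not computed. No relation had a gap of over 0.5 of the range of a measure with at least 2 libraries on both sides. No sequences were used. One planned list of markers is not reported here.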

Additional observations from a re-analysis of the deposited data

Results flagged for a closer look

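Of 29 quantities examined over the 8 libraries (21 members, 6 ratios and 2 complex medians), 1 had an extreme library whose gap to its neighbour was large for the range. The ratio of Atp5g1 to Atp5g3 counts was 1.17 in M5F19 and 0.991 to 1.06 in the other 7, a gap of 0.586 of the range, past Dixon's 95% limit for 8 values. Chance flags about 1 in 20, and these libraries are not replicates of a group.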

How the results depend on the processing

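Leaving out 1 library gave 0 to 1 members past 2-fold, 1 to 3 past 1.5-fold and 0 to 1 past 1.5-fold by the trimmed span. The lowest of the first 2 counts came without M5F12; the third was 0 without M5F5, M5F7, M5F12 or M5F16, and dropping a library narrows that range by construction. The count of members lowest in M5F12 ran from 15 to 18 on leaving out another library (14.8 to 17.5% of all genes then tested). No other scaling, filter or prior count moved these counts by over 1.5 times. With total counts, 3 members were highest in M5F22 in place of 5, and 2 in M5F56 in place of 0. That scaling moved all genes tested the same way, with a median deviation of -0.026 in M5F22 and 0.046 in M5F56. The shares over all genes highest there were not computed for it. The median deviation in M5F12 stayed below 0 under every scaling and without each other library, from -0.15 to -0.11 for complex II and from -0.26 to -0.23 for complex V over the libraries left out; with total counts it was -0.077 and -0.18, against -0.13 and -0.25. The correlation of Sdhc with Sdhd changed sign, to -0.15 with total counts, -0.015 with upper-quartile factors and -0.34 without M5F19 and M5F22; none of these had a p under 0.05, and the cause was not tested. Values planned for complexes III and IV and for their isoform ratios were not computed, nor the medians without restricted isoforms, as none of the 21 is named as one. No paired analysis was possible because the labels give no groups. A count of 0 allows up to 3 counts, a floor of 0.199 to 0.214 CPM per library.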

Other observations

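The list of regulators held 8 transcriptional regulators of mitochondrial genes and Atpif1, and its members differed in how far they spanned. Of the 9, 3 spanned 2-fold or more (13.9% of all genes tested), Ppara, Ppargc1b and Ppargc1a, while Esrra and Nrf1 spanned 1.30-fold and 1.29-fold. Ppargc1b, a coactivator of mitochondrial biogenesis, was at 102 CPM in M5F19, 98.0 in M5F16, 71.4 in M5F56, 63.0 in M5F12, 60.2 in M5F22, 43.0 in M5F55, 40.6 in M5F7 and 36.1 in M5F5. Ppargc1a, its close relative, was at 257 CPM in M5F22, 214 in M5F16, 209 in M5F19, 183 in M5F12, 160 in M5F55, 147 in M5F56, 124 in M5F5 and 104 in M5F7. Ppara, a nuclear receptor that works with both, had its lowest values in M5F7 and M5F5 (24.9 and 25.5 CPM) and a median of 47.7 CPM. M5F5 and M5F7 held the 2 lowest values of each of these 3, which were picked out after their values were seen. The same held for Esrrg (41.9 CPM in M5F7 and 42.6 in M5F5) and for Gabpa (76.0 and 81.6 CPM). The list as a whole did not share this in M5F5, where Nrf1, Tfam, Esrra and Atpif1 were above their own medians and the median deviation of the 9 was -0.071 on the log2 scale, against -0.43 in M5F7.

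Atpif1, which encodes the inhibitor that binds the ATP synthase when the proton gradient fails, and Usmg5, a small ATP synthase subunit outside the naming rule, are given here after their values were seen. Atpif1 was at 99.0 CPM in M5F5, 93.0 in M5F55, 92.2 in M5F7, 91.2 in M5F56, 80.9 in M5F22, 74.2 in M5F16, 68.6 in M5F12 and 67.5 in M5F19. Usmg5 had a median of 536 CPM and was lowest in M5F12 (428) and M5F16 (451) and highest in M5F5 (629) and M5F7 (622), like the structural subunits. No member fell into separate clusters over the libraries by the rule used for relations; the widest inner gap was that of Atp5b, 0.431 of its range, between M5F5 and M5F7 and the other 6.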
